A study of Mus musculus with 36 samples.

Results

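Mouse cortical neurons given the higher of 2 sodium selenite doses were set against untreated neurons of the same cultures, with 6 RNA libraries in each group and so 12 of the 36 libraries of the series. The libraries were chosen by their labels alone: every library labelled as selenite at a dose of 1 with nothing else added, and every untreated control. The cells came from CD1 mice, an outbred strain, at embryonic day 15, had 24 h in culture before a treatment of 6 h, and the untreated neurons of the control group carried no other agent. Sample labels write the selenite dose in mM and the series text writes it in micromolar, so doses appear here without a unit. Each of 6 culture batches supplied 1 library of every group, so that each selenite library has a control library from its own batch. A further 3 groups served where a result is set beside them: selenite at 0.1, HCA at 5 mM, and HCA at 5 mM with selenite at 1, each with 6 libraries from the same batches. HCA is homocysteic acid per the sample labels, a glutamate analogue that blocks cystine uptake, while the series text describes it as a ferroptosis inhibitor. No gene passed the test of the comparison, and what follows gives the levels, their spread and the precision of the fold changes.

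Selenium enters proteins as selenocysteine, an amino acid inserted at UGA codons that are read through with the help of a structure in the messenger RNA, the protein SECISBP2 and the elongation factor EEFSEC. Selenite is an inorganic selenium source that cells reduce to selenide, from which SEPHS2 makes the selenium donor for selenocysteine synthesis. Among the selenoproteins, glutathione peroxidase 4 reduces lipid peroxides and so holds back ferroptosis, an iron-dependent form of cell death, and the thioredoxin reductases keep thioredoxin reduced. The purpose of the study, as far as its text gives it, was to learn how selenium changes gene expression in neurons with and without HCA.

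Genes are named through an inference about the table. Each row appeared to hold the transcripts that stand 1 place before those of its labelled gene when all transcripts are sorted by identifier. The order of the rows bears on this: at that shift, 28.3% of the 9795 neighbouring pairs of rows with 1 transcript lay within 2 Mb of each other on 1 chromosome, against 0.449% to 0.704% at the other 12 shifts from -6 to 6. A gene was named only where all coding transcripts of a row came from 1 gene, which held for 9548 rows and 7506 genes. The test covered 7124 of these genes, and where a gene had several rows, the row with the highest mean was taken. A row can hold 1 of several transcripts of a gene, and non-coding transcripts of other genes with it. Levels are CPM, counts scaled to a common library size, and they are not divided by transcript length, so they are compared between groups and not between genes.

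Selenoprotein genes are the group with the most direct tie to selenite, and promoters are shown for 2 of the better measured members: Selenof, which encodes a selenoprotein of the endoplasmic reticulum and whose window holds both motifs searched, and Sephs2, whose window holds neither. The windows run from 250 bases before to 50 bases after the start in RefSeq on GRCm38.p6, 5′ to 3′ along the gene's strand: chr3:144570177-144570476 on the plus strand for Selenof and chr7:127274010-127274309 on the minus strand for Sephs2. Capitals mark the motif bound by Sp1 factors, GGGCGG or its complement CCGCCC, and the TFAP2 motif GCCNNNGGC, which reads the same on both strands and was allowed to overlap the other.
Selenof: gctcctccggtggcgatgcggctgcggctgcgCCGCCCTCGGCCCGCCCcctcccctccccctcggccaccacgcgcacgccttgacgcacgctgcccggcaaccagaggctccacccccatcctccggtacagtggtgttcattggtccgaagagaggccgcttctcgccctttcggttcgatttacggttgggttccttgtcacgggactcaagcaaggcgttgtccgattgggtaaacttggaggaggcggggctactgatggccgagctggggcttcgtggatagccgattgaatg
Sephs2: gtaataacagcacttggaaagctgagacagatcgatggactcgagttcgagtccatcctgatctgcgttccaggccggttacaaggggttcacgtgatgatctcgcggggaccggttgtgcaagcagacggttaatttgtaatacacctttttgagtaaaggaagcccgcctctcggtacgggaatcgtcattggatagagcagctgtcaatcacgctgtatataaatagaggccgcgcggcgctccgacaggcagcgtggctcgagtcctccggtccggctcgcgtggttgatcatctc
The Selenof window held 2 matches of the first motif and 1 of the second, while the Sephs2 window held neither. Of all 32851 windows, 35.7% held the first motif and 16.6% the second. By gene, 14 of 24 selenoprotein genes had the first motif in a window and 8 the second, against 38.2% and 18.5% of all 27025 genes. These are letter matches, and no binding was measured.

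The groups differed in how much of each library was ribosomal RNA. Rows that hold ribosomal RNA took 45.8% of the counts in the lowest control library, 81.2% at the median and 87.9% in the highest, and in the selenite libraries they took 2.53%, 37.7% and 76.0%. Of the 40 rows counted as ribosomal RNA, 29 also hold coding transcripts, and the share cannot be given to ribosomal RNA alone in those. The share was lower with selenite in all 6 culture batches, and the means were 76.2% ± 15.2 and 37.3% ± 30.4 (SD, n = 6 each). The difference of -38.9 percentage points had a two-sided exact permutation p of 0.0173, and 0.0312 with sign flips within batches. That difference was already known from earlier results of these libraries when the test was set up, so its p-values are not independent support. Adjusted over 6 shares of transcript classes looked at, the exact permutation p was 0.0519, without control replicates 5 and 6 the exact permutation p was 0.0714, and without batch 1, 4 or 5 it was 0.0556. The 11 rows with no coding transcript took 13.7% ± 2.39 in control and 8.12% ± 4.54 with selenite (SD, n = 6 each), lower in all 6 batches (exact permutation p = 0.0216). In the cultures with HCA the same dose gave a difference of -12.3 points (exact permutation p = 0.468), and the effects without and with HCA differed by 26.6 points (exact permutation p = 0.219 over sign flips within batches). Ribosomal RNA was to be removed by a kit before sequencing, and whether the difference lies in the cells or in that step was not tested.

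**Figure D1:**
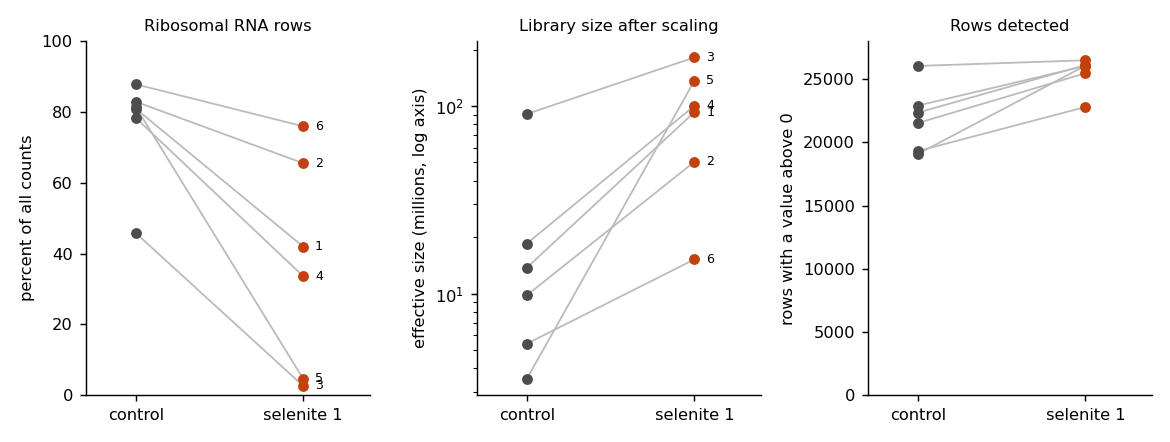
Each point is 1 library, gray lines join the control and selenite libraries of a culture batch, and the numbers name the batch. The panels give the percent of counts in ribosomal RNA rows, the library size after scaling in M on a log axis, and the number of rows above 0. All 6 lines go down in the first panel and up in the others.

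Depth outside ribosomal RNA rows differed with that share. Total counts were alike, from 39.2 to 56.9 M in control and from 38.9 to 51.9 M with selenite. Counts outside those rows ran from 6.91 to 25.5 M and from 11.0 to 49.6 M. Scaling factors ran from 0.0785 to 1.93 in control and from 0.331 to 3.97 with selenite. The sizes after scaling, which are not counts sequenced, ran from 3.51 to 90.6 M and from 15.2 to 182 M. They did not follow the share alone: control replicates 1 and 5, at 81.0% and 81.5%, had sizes of 13.7 and 3.51 M. The plot of the libraries shows these sizes and the rows above 0. Those rows numbered from 19086 to 26055 in control and from 22804 to 26504 with selenite, and were more numerous with selenite in all 6 batches. A gene of low level is therefore more often at 0 in control, and of the 733 rows higher with selenite in all 6 batches, 377 had a control library at 0. Control replicates 5 and 6 stood apart from the other controls, with correlations of 0.712 to 0.779 and 0.822 to 0.839 with replicates 1 to 4, which had 0.878 to 0.903 among themselves. Selenite replicates 5 and 6 correlated at 0.911 with each other and at 0.649 to 0.830 with selenite replicates 1 to 4, which had 0.864 to 0.941 among themselves. These correlations describe log2(CPM + 0.5) over the 7753 rows of mean at least 5 CPM. Without batches 5 and 6, 29 of the 130 genes named by rule were on the other side of 0, Por (-0.14), Aars (-0.07), Mt3 (-0.15), Jund (-0.14) and Tubb3 (-0.17) among them. The medians of lists and the values of selenium genes are given without those batches below where the direction turned.

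None of the 25588 rows tested passed an adjusted p of 0.05 in edgeR's quasi-likelihood test (0% called), and the lowest adjusted p was 0.175. Unadjusted p-values under 0.05 were found for 1363 rows, 5.33% of those tested, of which 870 were higher and 493 lower with selenite. DESeq2 called 19 of 25077 rows (0.0758%), 8 higher and 11 lower. Without culture batch 3, edgeR called 11 rows, all higher with selenite, among them those of Fkbp6, Fam234a and Atxn1. The median log2 fold change was 0.12 over all rows, with 63.6% of rows above 0, and it was 0.03 under the scaling of DESeq2, so that a list's median is read against its value over all rows. Rows higher with selenite in all 6 batches made up 2.86% of those tested and rows lower in all 6 made up 0.922%. The groups did not overlap in 63 rows that were higher (0.246%) and in 10 that were lower (0.0391%).

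In most of the better measured rows, the unadjusted interval of the single row lay within a 2-fold change either way. Such intervals do not tell how often the test adjusted over all rows would call a 2-fold change. Among the 7753 rows of mean at least 5 CPM, the median standard error of the log2 fold change was 0.23, and the 95% interval lay within -1 and 1 for 6346 rows (81.9%). Over all rows the median standard error was 0.46 and the interval lay within those bounds for 37.7%. Of the genes on the lists described below, 243 of 531 were tested, 16 of them (6.58%) had an unadjusted p under 0.05 against 5.33% of all rows, and the lowest adjusted p among them was 0.739. None of the 243 had groups that did not overlap. Of the 243, 4 were higher and 3 lower with selenite in all 6 batches, against 2.86% and 0.922% of all rows. List members described below as higher or lower in all 6 batches are among these, and such counts do not single them out.

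**Figure D2:**
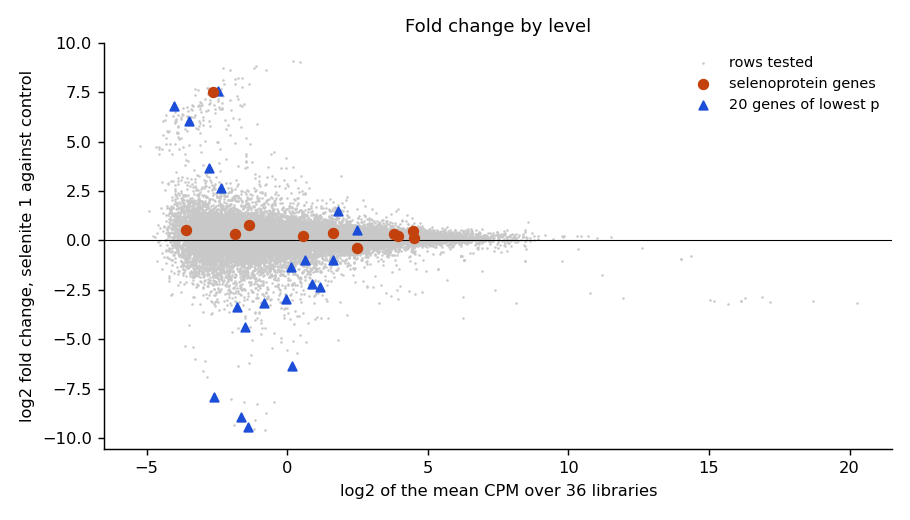
Log2 fold change of selenite 1 against control for each row tested (gray), by the log2 of its mean CPM over the 36 libraries. Selenoprotein genes are orange, and blue triangles are the 20 genes of lowest p. The spread narrows with level, and the rows past 5 on either side sit at low levels, where 1 group is at or near 0.

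Of 24 selenoprotein genes, 11 were tested through a row of their own. None passed the test, and the median log2 fold change was 0.33 against 0.12 for all rows. Of the 11, 10 were above 0, against 65.8% of all genes tested through 1 row. The median of 0.33 is the value of Dio3 (0.33 ± 0.99), and the median standard error of the 11 was 0.47. Without batches 5 and 6 the median was 0.15, against 0.07 for all rows, and 8 of 11 were above 0. With the ribosomal RNA percent as a covariate the median was 0.11, against 0.06 for all rows. None of the 11 was higher or lower in all 6 batches.

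Selenof (chromosome 3, 144570304 to 144597680) had 11.5 CPM in the lowest control library, 22.3 at the median and 30.9 in the highest, and 15.3, 24.97 and 33.8 with selenite. The groups overlapped almost throughout, although selenite was higher in 5 of 6 batches. Its log2 fold change was 0.14 ± 0.31 (SE), with a 95% interval of -0.49 to 0.77.

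Selenoh, which encodes a nucleolar selenoprotein, lies on chromosome 2, 84669215 to 84670770. Its control libraries ran from 12.6 CPM through 17.4 to 25.3, and its selenite libraries from 15.9 through 24.6 to 37.6. The highest selenite values, 37.6 and 34.7 CPM, were those of replicates 5 and 6, and the other 4 selenite libraries, at 15.9 to 28.5 CPM, overlapped the controls. The log2 fold change of 0.47 ± 0.26 had an interval of -0.06 to 0.99, an unadjusted p of 0.0796 and an adjusted p of 0.964. Without batches 5 and 6 it was 0.15. Other rows of Selenoh alone gave 0.51 ± 0.50 and, at a mean of 0.135 CPM, -0.83 ± 0.83. Its row with Med19 gave 0.05 ± 0.13.

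Sephs2, the enzyme that makes the selenium donor and is itself a selenoprotein, lies on chromosome 7, 127271879 to 127274055. It had 7.41 CPM in the lowest control library, 14.4 at the median and 16.7 in the highest, against 12.9, 15.5 and 19.1 with selenite. Both low control values were those of replicates 5 and 6, at 7.41 and 9.63 CPM, and the other 10 libraries lay between 12.9 and 19.1. The log2 fold change was 0.24 ± 0.16, with an interval of -0.08 to 0.55, and -0.05 without those batches. Selenoo, a mitochondrial selenoprotein, had 6.48, 9.88 and 12.2 CPM in control and 8.85, 10.2 and 17.9 with selenite, and a log2 fold change of 0.30 ± 0.24 that was -0.08 without batches 5 and 6.

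Gpx1, the cytosolic glutathione peroxidase, was the 1 selenoprotein gene below 0. Its control libraries ran from 2.00 through 8.39 to 11.1 CPM and its selenite libraries from 2.54 through 5.45 to 8.68, with a log2 fold change of -0.41 ± 0.33. Selenite was the higher in 3 of 6 batches. Selenos, a protein of the endoplasmic reticulum membrane, was at 0 in 3 control libraries and near 4 CPM in the other 3, and ran from 0.197 to 4.16 CPM with selenite (0.36 ± 0.60).

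Gpx4 had a row of its own at low level only, which holds 1 of its 3 coding transcripts. It ran from 0 through 0.942 to 3.71 CPM in control and from 0 through 1.30 to 3.10 with selenite, and the fold change of 0.22 ± 0.65 on the log2 scale is uncertain in either direction. Its batch 5 libraries were the highest of both groups and its batch 6 libraries were at 0 in both. Gpx3, the secreted glutathione peroxidase, stayed under 1 CPM in all 12 libraries (0.76 ± 0.47), as did Selenov (0.55 ± 0.75) and Dio3, the deiodinase that inactivates thyroid hormone (0.33 ± 0.99). Txnrd2, the mitochondrial thioredoxin reductase, had no count in any control library and reached 0.108, 0.250 and 1.78 CPM in 3 selenite libraries. Against a floor of 3 counts over the control group, 0.0212 CPM, it was at least 2.54 higher on the log2 scale. At that bound Txnrd2 still lies above the median of the 11, so that median stays at 0.33 whichever value is used.

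**Figure D3:**
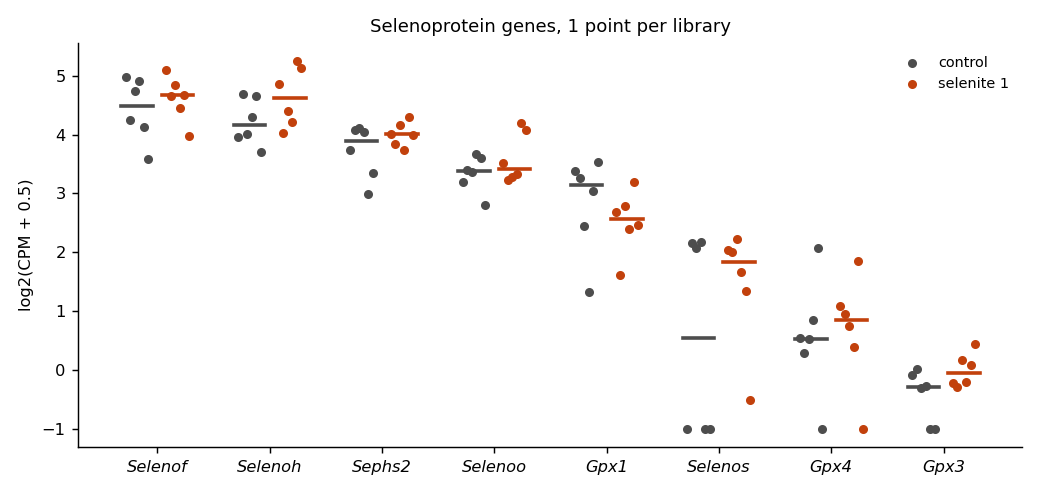
Log2(CPM + 0.5) of 8 selenoprotein genes in each control (gray) and selenite 1 (orange) library, 1 point per library in order of culture batch, with bars at the group medians. The groups overlap for every gene, and the values at -1 are libraries with no count.

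More selenoprotein transcripts lie in rows that they share with other genes, where a change cannot be given to 1 of them. Counting those rows, 23 of the 24 genes were covered by 53 tested rows, and 32 of these had a mean of at least 5 CPM. Their median log2 fold change was 0.13, 26 of 32 were above 0 against 75.8% of all rows at that level, and the 95% interval lay within -1 and 1 for 29. The row of Gpx4 with Ccdc80 and Wdtc1 had 53.6, 68.5 and 70.8 CPM in the lowest, median and highest control library and 42.2, 68.9 and 125 with selenite (0.32 ± 0.24). The row of Gpx4 with Ap2m1, Usp17la, Gapdhs and Ank3 gave 0.20 ± 0.18, with an interval of -0.16 to 0.56.

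Txnrd1, the cytosolic thioredoxin reductase, shared a row with Met, Plrg1 and Yy2 that ran from 39.9 to 91.0 CPM in control and from 56.2 to 90.5 with selenite (0.12 ± 0.17). The row of Selenow, a small selenoprotein of muscle and brain, with 6 other genes gave 0.15 ± 0.23. Selenop, the carrier that takes selenium to the brain, lay in 6 shared rows of at least 5 CPM with log2 fold changes from -0.10 to 0.52. The row furthest from 0 among the 32 held Selenof with Cmtr1, Lrp2, Rundc3b and Chd4: 3.77, 13.5 and 32.6 CPM in control, 2.69, 4.53 and 9.21 with selenite, and -1.82 ± 0.52 (unadjusted p = 0.00133, adjusted p = 0.689). The row of Selenof alone gave 0.14 ± 0.31, and another row, shared with 7 genes, 0.15 ± 0.15.

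Of 19 genes for selenium use and selenocysteine synthesis, 9 were tested, none passed, and the median log2 fold change was 0.14, with 7 of 9 above 0. Without batches 5 and 6 the median was -0.13. Eif4a3, a helicase that can bind selenocysteine insertion elements, had 37.1, 43.0 and 51.4 CPM in control and 33.7, 48.7 and 82.5 with selenite (0.30 ± 0.20). Its highest values, 82.5 and 69.4 CPM, were again those of selenite replicates 5 and 6, and without those batches the log2 fold change was -0.13. Eefsec, the selenocysteine elongation factor, ran from 2.86 through 4.89 to 8.07 CPM in control and from 3.42 through 4.31 to 6.09 with selenite (-0.19 ± 0.29).

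Secisbp2l, a relative of the insertion protein SECISBP2, gave 0.16 ± 0.39, and its lowest libraries were those of batches 5 and 6 in both groups. Trnau1ap, which binds the selenocysteine transfer RNA, gave 0.08 ± 0.21 (-0.21 without batches 5 and 6), and Scly, which recovers selenium from selenocysteine, gave 0.14 ± 0.31 (-0.29 without them). Lrp8, a receptor for SELENOP in the brain, gave -0.06 ± 0.30 (0.22 without them). Rpl30, a ribosomal protein that also binds the insertion element, gave 0.01 ± 0.28, and the nucleolar protein gene Ncl, under 0.3 CPM in all 12 libraries, gave 0.33 ± 0.76 (-0.25 without batches 5 and 6). Pstk, the kinase that acts on serine bound to the selenocysteine transfer RNA, was at 0 in control replicates 5 and 6, between 0.750 and 1.53 CPM in the other controls and between 1.01 and 1.38 CPM with selenite (0.68 ± 0.64).

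Tfap2c, a transcription factor known for selenium-driven expression of Gpx4 in neurons, was the 1 of 4 listed factors tied to selenium in this study that was tested, in a row that holds 1 of its 3 coding transcripts. Control libraries ran from 0 through 1.62 to 6.95 CPM and selenite libraries from 0.854 through 3.25 to 6.51, and selenite was the higher in 3 of 6 batches. The log2 fold change of 0.73 ± 0.70 was -0.07 without batches 5 and 6. A second row holds Tfap2c with Pgk1, the glycolysis enzyme, and 4 other genes. It had 56.4, 76.4 and 100 CPM in control and 72.5, 103 and 157 with selenite, a log2 fold change of 0.49 ± 0.19 with an unadjusted p of 0.0170 and an adjusted p of 0.844. The remaining row, of Tfap2c with Siglech, had 0.162, 1.67 and 2.59 CPM in control and 0, 0.476 and 1.36 with selenite, and lay on the other side of 0 (-1.37 ± 1.00, unadjusted p = 0.178).

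With HCA present, the same selenite dose could be looked at in 12 other libraries. HCA with selenite 1 against HCA gave 0 calls among the 25588 rows (0%), with 207 rows (0.809%) at an unadjusted p under 0.05, and the test of a difference between the effects with and without HCA gave 0 calls (0%), with 594 such rows (2.32%) and a lowest adjusted p of 0.280. DESeq2 called 3 and 8 rows. The selenoprotein median was -0.21 with HCA, beside 0.33 without it. Selenof gave -0.26 ± 0.31 with HCA, Selenoh -0.12 ± 0.25, Sephs2 -0.06 ± 0.15, Selenoo -0.09 ± 0.23 and Tfap2c 0.06 ± 0.67. The difference of effects for Selenoh was -0.58 ± 0.36, with an unadjusted p of 0.117.

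**Figure D4:**
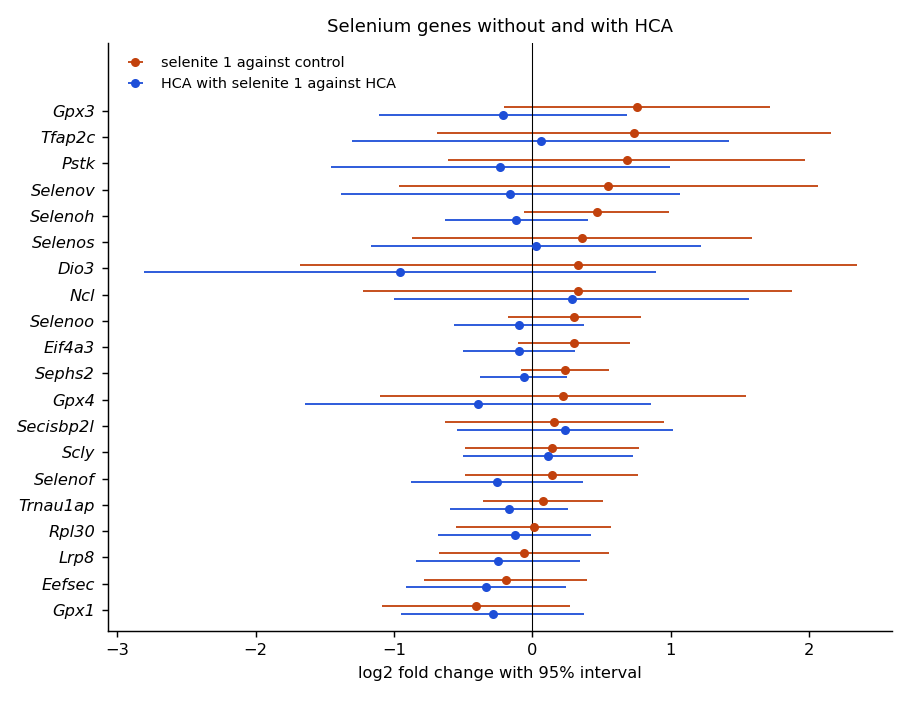
Log2 fold changes with 95% intervals for 20 selenium genes, for selenite 1 against control (orange) and HCA with selenite 1 against HCA (blue), which share no library. Txnrd2, with no count in control, is left out. Every interval includes 0 in both comparisons.

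Against the lower dose, selenite at 1 also gave 0 calls (0%), with 891 rows (3.48%) at an unadjusted p under 0.05 in edgeR and 0 calls in DESeq2. Selenof differed between the doses by 0.31 ± 0.31, Selenoh by 0.47 ± 0.26, Sephs2 by 0.13 ± 0.16 and Selenoo by 0.44 ± 0.24 on the log2 scale. The medians of these genes at the lower dose were 22.5, 19.5, 15.1 and 9.29 CPM, within the range of both other groups.

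Genes that limit ferroptosis or carry it out did not pass the test in either direction. Of 23 protecting genes 9 were tested, with 5 above 0 and a median of 0.04, and of 22 promoting genes 7 were tested, with 4 above 0 and a median of 0.20. Without batches 5 and 6 both medians were below 0, at -0.09 with 3 of 9 above 0 and at -0.14 with 3 of 7. Acsl4, the acyl-CoA synthetase that loads membranes with oxidizable fatty acids, was lower with selenite in all 6 batches: 1.77, 2.78 and 7.13 CPM in control and 0.449, 1.06 and 2.30 with selenite. The log2 fold change was -1.57 ± 0.52, with an unadjusted p of 0.00435 and an adjusted p of 0.747, and -1.52 without batches 5 and 6. With HCA it was -0.13 ± 0.49.

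Lpcat3, which inserts such fatty acids into phospholipids, was higher in all 6 batches, at 1.68, 2.26 and 2.85 CPM in control and 2.58, 3.01 and 4.07 with selenite (0.47 ± 0.23, adjusted p = 0.936). Vdac2, a channel of the outer mitochondrial membrane, was the highest of the promoting list (0.78 ± 0.58), and Por, an oxidoreductase of the endoplasmic reticulum and its most abundant row, gave 0.20 ± 0.18. Among the protecting genes, Gss, which completes glutathione synthesis, had 0, 1.66 and 3.32 CPM in control and 1.49, 3.00 and 5.59 with selenite. It was higher in all 6 batches (0.96 ± 0.41, adjusted p = 0.883), and gave 0.34 without batches 5 and 6. Vkorc1l1, a reductase of vitamin K, ran from 0.629 to 28.8 CPM in control and from 0.0165 to 4.08 with selenite and was lower in all 6 batches (-3.79 ± 1.61, adjusted p = 0.880). Slc3a2, the heavy chain of the cystine transporter, had 36.1 CPM at the control median and 34.7 with selenite, and a 95% interval of -0.25 to 0.25.

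Targets of Nrf2, the factor that drives antioxidant genes, had 7 of 28 tested, 5 above 0 and a median of 0.17, which was -0.08 without batches 5 and 6. Taldo1, of the pentose phosphate pathway, was highest (1.31 ± 0.80) and G6pdx, of the same pathway, lowest (-0.30 ± 0.59), both at low levels. Slc48a1, a heme transporter, gave 0.05 ± 0.20. Of 20 iron genes 10 were tested, with 6 above 0 and a median of 0.23. Fth1, the ferritin heavy chain, had 56.3, 71.6 and 98.9 CPM in control and 48.6, 74.7 and 101 with selenite (-0.02 ± 0.22), an interval narrow enough to lie within -1 and 1. Aco1, which doubles as an iron sensor, gave 0.30 ± 0.16 with an unadjusted p of 0.0617. Heph, a copper-dependent iron oxidase, was the highest (1.05 ± 0.58) and Slc25a37, the mitochondrial iron importer, the lowest (-2.16 ± 1.14), both under 1 CPM.

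Stress programs gave no call either. Of 41 targets of Atf4, the factor of the amino acid response, 14 were tested, 12 were above 0 and the median was 0.23, which was -0.03 without batches 5 and 6. Aars, the alanine transfer RNA synthetase, had 55.6, 77.0 and 89.7 CPM in control and 72.8, 82.1 and 117 with selenite (0.24 ± 0.15). The highest member was the amino acid transporter gene Slc7a3 (0.56 ± 0.46) and the lowest Eif4ebp1, which restrains translation (-0.02 ± 0.22). Of 22 genes of endoplasmic reticulum stress 9 were tested, with a median of 0.19, and the chaperone genes Canx (0.44 ± 0.56), Pdia6 (0.19 ± 0.20) and Hyou1 (0.16 ± 0.23) all had intervals that include 0, as did the lowest, Edem1 (-0.18 ± 0.26).

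Heat shock genes had 8 of 22 tested, a median of -0.04 and 3 above 0, and without batches 5 and 6 a median of 0.05 and 5 above 0. Hspa8, the constitutive chaperone, had 149, 294 and 372 CPM in control and 246, 325 and 394 with selenite (0.21 ± 0.21). Hspe1 gave 0.08 ± 0.16, Hsph1 0.58 ± 1.21 and Hspd1 -0.79 ± 0.52. Metallothionein and zinc transport genes had 8 of 11 tested and a median of 0.15. Mt3, the metallothionein of brain, had 7.64, 9.26 and 12.6 CPM in control and 4.84, 11.2 and 20.8 with selenite (0.30 ± 0.33), and the zinc importer gene Slc39a10 gave 0.14 ± 0.34. The zinc exporter gene Slc30a4 was highest (1.24 ± 0.92) and Mtf1, the zinc-sensing factor, lowest (-2.96 ± 2.17).

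Targets of p53 had 8 of 21 tested, 6 above 0 and a median of 0.31, which was 0.25 without batches 5 and 6. Mdm2, which restrains p53, was at 0 in all control libraries but 1 and ran from 0 through 0.460 to 2.18 CPM with selenite (2.39 ± 0.95, adjusted p = 0.844). Btg2, an antiproliferative gene, had 9.36, 13.3 and 18.0 CPM in control and 12.8, 17.7 and 26.8 with selenite (0.47 ± 0.19, adjusted p = 0.864), Ccng1 gave 0.24 ± 0.43 and Ei24 -1.17 ± 1.13. Of 22 apoptosis genes 13 were tested, with 7 above 0 and a median of 0.06, which was -0.07 without batches 5 and 6. Mcl1, which protects cells from apoptosis, gave 0.08 ± 0.22, Bcl2l11, which promotes it, 1.15 ± 0.70 and Xiap, an inhibitor of caspases, -0.39 ± 0.86.

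Immediate early and activity genes had 20 of 34 tested, 13 above 0 and a median of 0.05, which was -0.05 without batches 5 and 6, with 9 of 19 above 0. Jund had 47.9, 65.6 and 90.7 CPM in control and 50.2, 61.1 and 107 with selenite (0.18 ± 0.24), and Ier5 gave 0.21 ± 0.16. Bdnf, the neurotrophin gene, was lowest (-2.91 ± 1.31, adjusted p = 0.905), with at most 0.306 CPM in control and 0.0595 with selenite. Fosb was without a count in control and reached 0.116 CPM in 1 selenite library. Of 32 synapse genes 19 were tested, with 10 above 0 and a median of 0.05. Syp, of synaptic vesicles, had 16.5, 36.2 and 52.8 CPM in control and 27.2, 32.8 and 41.9 with selenite (-0.12 ± 0.18), and Syt1, the vesicle calcium sensor, gave -0.23 ± 0.30.

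After scaling, genes encoded by mitochondrial DNA lay lower as a list than all rows: 12 of 13 were tested, 8 were below 0 and the median was -0.39 against 0.12. None passed the test. As a share of all counts, mitochondrial messenger RNA took 0.0563% ± 0.0761 in control and 0.235% ± 0.165 with selenite (SD, n = 6 each). That share was higher in all 6 batches (exact permutation p = 0.0325, and 0.0519 adjusted over 6 shares). With the ribosomal RNA percent as a covariate the median was -0.04, and without batches 5 and 6 it was -0.06. mt-Nd6, a subunit of complex I and the 1 gene encoded on the light strand, had the lowest fold change: 2.38, 4.22 and 8.70 CPM in control and 1.84, 2.41 and 3.10 with selenite, and -1.02 ± 0.31 (unadjusted p = 0.00233, adjusted p = 0.739). Its 6 selenite libraries lay within a narrow range, and control replicates 1 and 6, at 6.99 and 8.70 CPM, were the highest. mt-Co1, the largest subunit of complex IV, had 526, 640 and 851 CPM in control and 464, 711 and 940 with selenite (0.09 ± 0.23). mt-Co3 gave -0.05 ± 0.37 and mt-Co2 0.96 ± 0.90. With HCA, mt-Nd6 gave 0.10 ± 0.30 and the median of the list was 0.07.

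Metabolic genes showed no call. Of 26 genes of glycolysis and hypoxia 13 were tested, with 8 above 0 and a median of 0.13, and without batches 5 and 6 with 3 above 0 and a median of -0.08. Ldha, lactate dehydrogenase, had 59.3, 70.9 and 107 CPM in control and 55.5, 110 and 174 with selenite (0.57 ± 0.27, unadjusted p = 0.0447, adjusted p = 0.934), and Eno1, enolase, gave 0.48 ± 0.26. Without batches 5 and 6 the values were 0.03 for Ldha and -0.15 for Eno1. Ankrd37 was highest (1.82 ± 1.14) and Slc2a3, a glucose transporter gene, lowest (-0.72 ± 0.69). Cholesterol synthesis genes had 10 of 25 tested and a median of 0.01. Hmgcs1, an early enzyme of the pathway, had 35.6, 66.5 and 116 CPM in control and 24.4, 96.5 and 134 with selenite (0.12 ± 0.37). Msmo1 (0.28 ± 0.51) and Sc5d (-1.27 ± 1.25) were the ends of that list.

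Genes of cell division had 8 of 26 tested, 7 above 0 and a median of 0.41, which was 0.17 without batches 5 and 6. Bub1b, of the spindle checkpoint, had 8.27, 19.3 and 27.1 CPM in control and 17.3, 23.3 and 33.6 with selenite (0.42 ± 0.25), and Ccnb1, cyclin B1, gave 0.39 ± 0.22. Kif20a was highest (0.74 ± 0.42) and Tyms lowest (-0.72 ± 1.13). Histone genes, with 8 of 20 tested, had a median of -0.04, with 4 above 0, and standard errors from 0.56 to 0.78. With culture batch as a block the median was 0.38, with 8 of 8 above 0, and without batches 5 and 6 it was -0.25, with none above 0. Control replicate 5 stood far above the other controls in them, at 2371 CPM for Hist1h4d against 309.6 in the next, and 1422 against 162 for Hist1h4a. Hist1h1b gave the highest fold change of the list (0.47 ± 0.62), Hist1h1d gave 0.28 ± 0.64, and the selenite libraries of Hist1h4d ran from 98.5 to 1189 CPM.

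**Figure D5:**
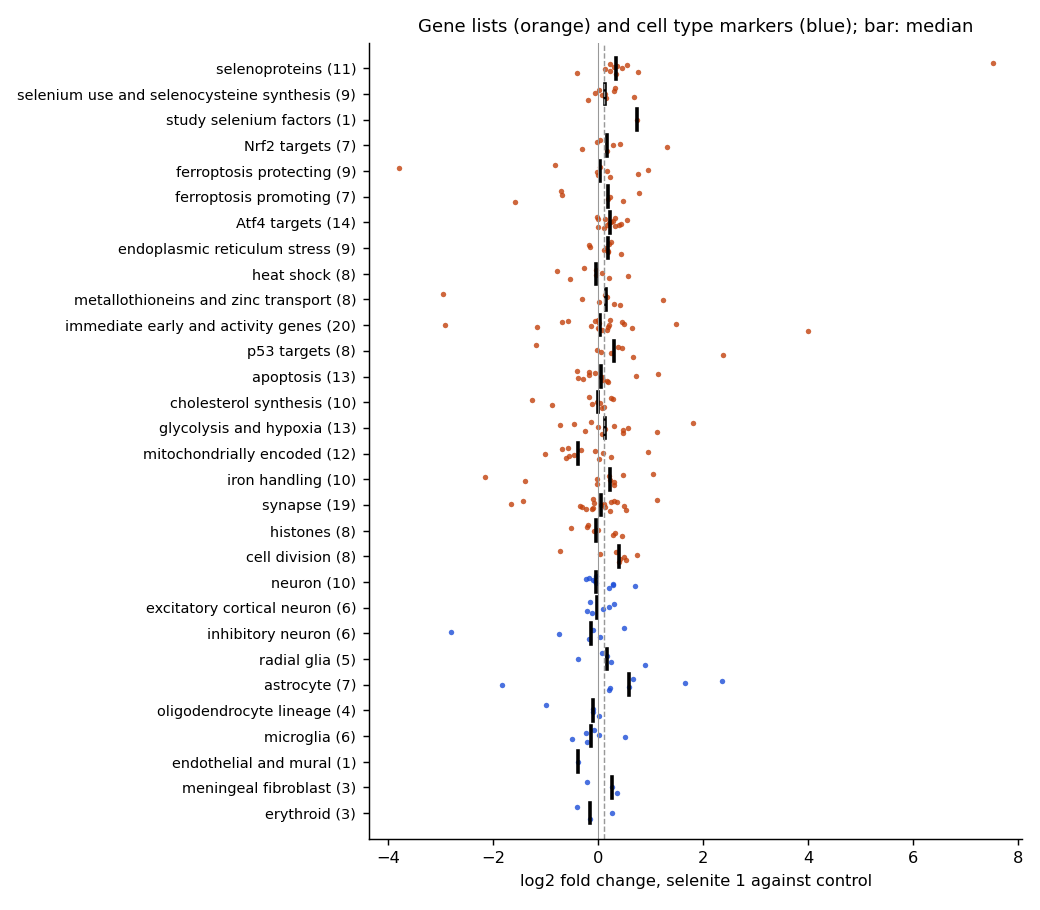
Log2 fold change of selenite 1 against control for every tested member of each gene list (orange) and of each set of cell type markers (blue), with black bars at the medians and the number tested in brackets. The dashed line is the median of all rows. No member passed the test, and fitted values far from 0, such as that of Txnrd2 on the right, come from genes with libraries at 0.

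Cell type markers were read for what the cultures held. Neuron markers were abundant in both groups: the 10 tested summed to 722, 856 and 984 CPM in the lowest, median and highest control library and to 650, 926 and 1324 with selenite, led by Tubb3, the neuronal tubulin, at 760 and 819 CPM at the medians (0.20 ± 0.22). The microtubule genes Dcx and Map2 gave 0.29 ± 0.48 and 0.70 ± 0.73. Markers of excitatory cortical neurons summed to 43.9 to 92.9 CPM in control and 57.7 to 114 with selenite, and Neurod2 (-0.12 ± 0.20), Cux1 (0.30 ± 0.36) and Cux2 (-0.14 ± 0.38), transcription factors of these cells, all had intervals that include 0. Markers of inhibitory neurons summed to 30.3 to 110 CPM and 21.1 to 40.0. Dlx6, a homeobox gene of inhibitory neurons, ran from 3.10 through 21.96 to 86.9 CPM in control and from 0.565 through 3.44 to 13.3 with selenite and was lower in all 6 batches. Its log2 fold change was -2.81 ± 0.91 (unadjusted p = 0.00391, adjusted p = 0.747), while Gad1, the enzyme that makes GABA, gave -0.16 ± 0.27 and Slc32a1, its vesicle transporter, -0.09 ± 0.22. Calb2, a calcium-binding protein of some inhibitory neurons, was the highest of the list (0.49 ± 0.31).

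Markers of other cell types were also detected, and none of those tested was at 0 in every library of either group. Sums are compared between groups and not between lists. The neuron list had 4 of 10 above 0 and a median of -0.04 (0.32 without batches 5 and 6), the inhibitory list 2 of 6 and -0.13 (0.08), and the meningeal list 2 of 3 and 0.28 (-0.03). Radial glia markers summed to 67.7 to 116 CPM in control and 77.5 to 114 with selenite, with Pax6 at 0.89 ± 0.81, Nes at 0.18 ± 0.41 and Vim at -0.39 ± 0.47. Astrocyte markers summed to 35.6 to 60.2 and 49.1 to 78.4 CPM, with 6 of 7 above 0 and a median of 0.59, which was 0.15 without batches 5 and 6 and 0.10 over every row that holds a member. Fgfr3, a receptor of the astrocyte lineage, was higher in all 6 batches, with 0, 0.785 and 3.35 CPM in control and 1.64, 4.71 and 6.87 with selenite (1.66 ± 0.65, adjusted p = 0.841). Slc1a3, the glutamate transporter with the highest level of that list, gave 0.21 ± 0.31 and Mlc1 0.67 ± 0.39, and the ends of the list were Slc4a4 (2.37 ± 1.17) and S100b (-1.83 ± 1.23).

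Markers of microglia summed to 7.28 to 18.2 and 8.04 to 18.2 CPM, those of the oligodendrocyte lineage to 7.98 to 14.97 and 6.36 to 14.9, and those of red blood cells to 3.20 to 19.96 and 3.65 to 17.2. Among the microglia genes, C1qb gave 0.03 ± 0.38, C1qc -0.23 ± 0.57, Itgam 0.51 ± 1.35 and Cx3cr1 -0.49 ± 0.46. Of the oligodendrocyte lineage, Olig2 gave 0.01 ± 0.25, Cspg4 -0.10 ± 0.46 and Mbp, a myelin protein gene, -0.996 ± 1.02. The globin genes Hbb-bs, Hba-a2 and Hbb-bt gave 0.28 ± 0.50, -0.15 ± 0.55 and -0.40 ± 0.58. Markers of meningeal fibroblasts, with Col1a2 and Col3a1 in the lead, ran from 4.87 to 169 CPM in control and from 2.65 to 174 with selenite, and Col1a2 (0.36 ± 1.35) and Col3a1 (0.28 ± 0.96) were highest in batch 3 in both groups. Lum, the third of them, gave -0.20 ± 1.21. Of the endothelial list only Pecam1 was tested, at 1.43 CPM or less. In these cultures fewer cells of a type and less RNA per cell cannot be told apart.

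The 20 named genes of lowest p were mostly of low level, with a mean under 1 CPM for 12 of them and a control library at 0 for 11. They are given by values, since their adjusted p ran from 0.342 to 0.747. Myct1 headed them, at 0.728, 4.41 and 9.98 CPM in control and 0.263, 0.995 and 1.78 with selenite (-2.34 ± 0.52). DESeq2 called it at an adjusted p of 0.00227. With HCA it gave 0.99 ± 0.49, and the difference of effects was 3.33 with an adjusted p of 0.280. Lrig1, a brake on growth factor receptors, gave -3.16 ± 0.78 and was called by DESeq2 at 0.0110. Its control values ran up to 7.56 CPM around a median of 0.383.

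Psmg2, a chaperone of proteasome assembly, was among the better measured of the 20. It had 3.14, 4.71 and 6.33 CPM in control and 6.26, 6.77 and 8.12 with selenite, was higher in all 6 batches, and the ranges met only between 6.26 and 6.33 CPM. The log2 fold change was 0.54 ± 0.16, 0.37 without batches 5 and 6 and 0.20 ± 0.16 with HCA, with an adjusted p of 0.720. Pheta1 had 0.285, 1.19 and 3.98 CPM in control and 2.07, 3.87 and 14.01 with selenite (1.49 ± 0.47), and gave 0.36 without batches 5 and 6. Nrsn1, a neuronal vesicle protein gene, was lower in all 6 batches, at 0.993, 2.17 and 3.71 CPM in control and 0.788, 1.13 and 1.49 with selenite (-1.01 ± 0.29).

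Nodal (-1.35 ± 0.36), Lypd2 (-2.98 ± 0.83) and Mbd6 (-2.19 ± 0.68) were also lower in all 6 batches, each with control replicate 5 as its highest library. Pomt1, which starts sugar chains on dystroglycan, did not overlap between groups, with 0.320 CPM in its lowest control library and 0.182 in its highest selenite library. Fkbp6 and Gm7361 did not overlap either and were higher with selenite, each with a count in 1 control library only, and at most 0.653 and 0.272 CPM. Rfx4, Txndc16 and Cfap100 had no count in any control library and at most 0.599, 0.242 and 0.324 CPM with selenite, which is at least 4.13, 2.56 and 3.31 higher on the log2 scale against the floor of 3 counts. 5730455P16Rik, Optn and Pld3 had no count with selenite, where the floor of 3 counts over the group is 0.00521 CPM, and were at least 5.65, 5.65 and 6.06 lower. Ugt2b37 gave -4.37 ± 1.29, at most 1.74 CPM in control and 0.0798 with selenite. Rab40c gave -6.36 ± 1.97, with 0, 2.60 and 10.7 CPM in control and at most 0.171 with selenite.

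In the HCA cultures, which share no library with these, 13 of the 20 had the same direction and none had an unadjusted p under 0.05. Fkbp6 gave 0.88 ± 0.55 there, Nrsn1 -0.45 ± 0.28 and Mbd6 -0.59 ± 0.64, while Nodal gave -0.05 ± 0.35 and Pomt1 0.09 ± 0.90. For the difference of effects, which uses the libraries that chose these genes, 15 had an unadjusted p under 0.05 and the lowest adjusted p was 0.280. The comparison with selenite 0.1 also uses the selenite 1 libraries that chose the genes. There 3 of the 20 had an unadjusted p under 0.05, against 3.48% of all rows, with adjusted p at 1.00 for all.

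A pair of rows that hold several coding genes shared the lowest adjusted p of all, 0.175, and are described after their values were seen. The row of Gfm2, Tulp1 and Vmn2r9 had no count in control and 0.0992, 0.749 and 2.20 CPM with selenite, at least 5.63 higher on the log2 scale against the floor. The row of Defb11 and Emc6 had 0, 0.0271 and 0.437 CPM in control and 0.814, 1.09 and 1.68 with selenite (2.73 ± 0.54). Both were called by DESeq2, at adjusted p of 0.000218 and 0.00227. A row of Ptgir, Ccdc189, Irgc1 and others, at 0.855, 5.29 and 7.22 CPM in control and 8.28, 10.4 and 17.6 with selenite, gave 1.19 ± 0.32, did not overlap between groups and was called by DESeq2 at an adjusted p of 0.0429.

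Ribosomal and other non-coding RNA made up the largest rows. All 40 ribosomal RNA rows were tested, 26 were below 0 and 11 had an unadjusted p under 0.05, with a lowest adjusted p of 0.747. The 3 largest hold 87.4% of their counts, and 2 of these also hold coding genes, Ncapg, Nr1h5 and Rufy3 in 1 and Lars2, Wnk1, Prg4, Myl1 and others in the other. In order of size they gave -3.15 ± 1.68, -3.07 ± 1.604 and -3.14 ± 2.32. The 7SK RNA, which restrains transcription elongation, took 0.872% ± 0.820 of counts in control and 3.89% ± 4.12 with selenite, and 7SL RNA, of the signal recognition particle, 1.35% ± 1.33 and 5.54% ± 5.52 (SD, n = 6 each), both higher in all 6 batches. Relative to the rest of the libraries after scaling they were not higher: Rn7sk gave -0.80 ± 0.68 and Rn7s1 -0.93 ± 0.71. The ratio of 7SK to coding counts was higher with selenite in 4 of 6 batches, with an exact permutation p of 0.459. Rows with coding transcripts took 16.2% ± 13.4 of counts in control and 48.1% ± 24.9 with selenite.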

How the data were processed

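The authors deposited 1 table of estimated counts per gene identifier for 36 libraries, which need not be whole, with library totals from 34.3 to 56.9 M. STAR, Salmon and GRCm38 are named in the submitters' processing notes, with versions, settings and annotation release not given in the sources used here. Ribo-Zero Gold was used against ribosomal RNA, per the labels' protocols. The table's 27288 rows (99.29% in GENCODE vM21) were read as holding the transcripts 1 place before those of the labelled gene, an inference that no label states. Of these rows, 11596 hold coding transcripts of several genes and 6137 hold none.

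Estimated counts were rounded and fitted over all 36 libraries and 6 groups in R 4.3.3 with edgeR 4.0.16's quasi-likelihood test (TMM scaling, filterByExpr with its minimum count of 10, Benjamini-Hochberg adjustment, threshold 0.05). CPM use the scaled library sizes. edgeR raises p above that of its F statistic for 1971 of 25588 rows (Me1, Gclm and Bcl2l11 among the list members), where the standard error printed, the log2 fold change over the square root of F, does not go with p. Shares of counts were compared by exact permutation. The culture batch numbers in the labels pair the libraries. Deviations of same-numbered control and selenite 1 libraries from their group means correlated at -0.02 to 0.67 over 7753 rows. Whether batches are separate litters is not stated. If the libraries of a group are not of separate cultures, p-values measure only the spread between these samples. The fitting script was tested on simulated data. Alternatives were the batch as a block, other scalings, filters and tools (DESeq2 1.42.0, limma 3.58.1 voom), the ribosomal RNA percent as covariate, and libraries left out.

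Genes named are all tested members of the selenium lists, the 20 single-gene rows of lowest p, and of every other list the highest, the lowest and the 2 most abundant members, some of which are not reported here. Members and lists were chosen with earlier results of these data known. Intervals and floors cover the model's or counting error only.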

Additional observations from a re-analysis of the deposited data

Results flagged for a closer look

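Of 262 groups of 6 values looked at, 43 held a library far from the other 5, and the groups are not independent because they share libraries. Of these, 25 were in control and 21 in culture batch 5 or 6, and 38 were on the high side. Dixon's ratio, the gap to the nearest library over the group's range, marked them at its 95% limit. Values below are CPM, and the library is the highest of its group unless said otherwise. No cause was tested for any of them.

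The ribosomal RNA share of control replicate 3, 45.8%, stood below that of the other controls. In control replicate 2 the values that stood apart were Pld3 at 5.01, Hsph1 at 0.817 and Bdnf at 0.306. In control replicate 3 the values that stood apart were Fkbp6 at 0.143, Gm7361 at 0.0331, Mdm2 at 0.441, Ankrd37 at 0.309 and Mlc1 at 12.9. The same library also stood apart with Itgam at 1.13, Col1a2 at 99.0 and Col3a1 at 70.3. In control replicate 5 the values that stood apart were Gpx4 at 3.71, Nodal at 5.13, Lypd2 at 9.12, Mbd6 at 12.3 and Hspd1 at 2.28. The same library also stood apart with Hist1h1b at 944, Hist1h4a at 1422, Hist1h4d at 2371 and Hist1h1d at 1512. The same library also stood apart with Cux2 at 0 (the lowest of the group), Nes at 0 (the lowest of the group), S100b at 2.57 and Cx3cr1 at 0.855 (the lowest of the group). In selenite 1 replicate 1 the values that stood apart were Xiap at 2.96. In selenite 1 replicate 2 the values that stood apart were Bdnf at 0.0595 and Ankrd37 at 0 (the lowest of the group). In selenite 1 replicate 3 the values that stood apart were Rab40c at 0.171, Pdia6 at 59.5, Fosb at 0.116, C1qc at 5.56 and Col1a2 at 103. The same library also stood apart with Col3a1 at 69.9 and Hbb-bt at 0.854. In selenite 1 replicate 6 the values that stood apart were Txnrd2 at 1.78, Lypd2 at 1.12, Pheta1 at 14.01, Vkorc1l1 at 4.08 and Mtf1 at 1.71. The same library also stood apart with Bcl2l11 at 0.526, Dlx6 at 13.3 and S100b at 0.789.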

How the results depend on the processing

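The number of rows changed in selenite 1 against control was 0 under every alternative run except DESeq2, with 19, and the fit without replicate 3, with 11, so that leaving out 1 replicate gave 0 to 11. With culture batch as a replicate block it was 0, with 1476 rows at an unadjusted p under 0.05 against 1363, and the block changed no other call. DESeq2 called 8 rows for the difference of effects with and without HCA and 3 for HCA with selenite 1 against HCA. Against selenite 0.1, leaving out 1 replicate gave 0 to 1 calls, the 1 without replicate 3. The cause of these differences between fits was not tested.

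The ribosomal RNA difference of -38.9 points ran from -44.3 to -31.3 when 1 replicate was left out, with exact permutation p from 0.00794 to 0.0556, and was -34.7 without control replicates 5 and 6 (exact permutation p = 0.0714). Over rows with no coding transcript it was -5.57 points (exact permutation p = 0.0216). With rows read by their labelled gene, with no shift, it was 2.15 points (exact permutation p = 0.0433), since other rows are then counted as ribosomal RNA. Of 2564 values of 130 named genes under alternatives, 192 lay on the other side of 0, in 67 genes, and 4 passed the threshold: Myct1, Lrig1 and Lypd2 in DESeq2 (adjusted p = 0.00227, 0.0110 and 0.0499) and Fkbp6 without replicate 3 (adjusted p = 0.0134). Of 207 list medians under alternatives, 8 moved by more than the median standard error of their members. Unequal depth in the control libraries limits genes of low level most. Leaving out batches 5 and 6, the 5 CPM minimum, the count of every row holding a list member and the ribosomal RNA rows with no coding transcript were chosen after seeing the data. The test of the ribosomal RNA share was set up with its difference known from earlier results.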
